A study of Mus musculus with 8 samples.

Results

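Adult globin transcripts and transcripts of 4 other red cell genes were followed on 8 arrays of laser-captured mouse spleen cells. The genes were the adult alpha globins Hba-a1 and Hba-a2, the adult beta globins Hbb-b1 and Hbb-b2, and Alas2, Ahsp, Slc4a1 and Epb42. All probe sets whose platform annotation names one of them were taken, also those that name several genes. This gave 7 of 35556 probe sets, which name 7 of the 8 genes, out of 21335 gene symbols on the array. Ahsp was not analysed here. Both alpha globin probe sets (10375051 and 10375058, called alpha A and alpha B) name Hba-a1 and Hba-a2 together. Both beta globin probe sets (10566254 and 10566258, called beta A and beta B) name Hbb-b1, Hbb-b2, Hbb-bs and Hbb-bt. No single adult globin gene could therefore be read apart from its close copies. Alas2 (10602372), Slc4a1 (10391649) and Epb42 (10486664) had 1 probe set each, which names no other gene.

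The cells came from male wild type C57Bl/6j mice aged 8 weeks. Hemophagocytes are macrophages with ingested blood cells, and they were taken from mice given 4 intraperitoneal doses, on alternate days, of 37.5 ug CpG1826 with 200 ug of the antibody clone 1B1.3A. CpG1826 is an oligonucleotide that stimulates Toll-like receptor 9, and 1B1.3A blocks the IL-10 receptor. Resting macrophages came from mice given 200 uL PBS on the same schedule. Per the labels' protocols, 20 target cells per mouse were captured from spleen touch preparations and pooled. Each group had 4 arrays, and the arrays are named by the replicate numbers of the sample titles (2, 3, 5 and 6 for hemophagocytes, 3, 4, 5 and 6 for resting macrophages). Macrophages without engulfed cells were not arrayed from treated mice, so engulfment and treatment cannot be told apart. Which mice contributed to an array is not in the labels, so the p-values speak only of the variation among these arrays, part of which could be technical. The arrays are bulk samples, in which fewer red cells and less RNA per red cell cannot be told apart.

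Hemoglobin is a tetramer of alpha and beta globin chains, each holding a heme group, and red cell precursors devote most of their messenger RNA to it. Reticulocytes, the youngest red cells in the circulation, still hold globin messenger RNA after the nucleus has been lost. Alas2 makes the first intermediate of heme in erythroid cells, Slc4a1 is band 3, the anion exchanger of the red cell membrane, and Epb42 is protein 4.2, which ties band 3 to the membrane skeleton. Macrophages of the splenic red pulp take up old red cells and recycle their iron. Mice of the C57BL/6 strains carry Hbb-bs and Hbb-bt as their adult beta globin genes, and Hbb-b1 and Hbb-b2 are names of another haplotype.

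The 200 bases before the RefSeq transcript start are shown for the 4 adult globin genes of this strain. They are read from RefSeq (GRCm38.p6), 5′ to 3′ on the gene's strand, and capitals mark, on either strand, the TATA box letters TATAA, the CAAT box letters CCAAT, the CACCC box and the GATA factor letters GATAA.
Hba-a1 (chr11:32283472-32283671, plus strand): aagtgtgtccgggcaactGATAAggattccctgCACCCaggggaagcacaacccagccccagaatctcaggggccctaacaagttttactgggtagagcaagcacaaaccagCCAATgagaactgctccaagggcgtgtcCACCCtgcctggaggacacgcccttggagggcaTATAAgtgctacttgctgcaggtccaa
Hba-a2 (chr11:32296292-32296491, plus strand): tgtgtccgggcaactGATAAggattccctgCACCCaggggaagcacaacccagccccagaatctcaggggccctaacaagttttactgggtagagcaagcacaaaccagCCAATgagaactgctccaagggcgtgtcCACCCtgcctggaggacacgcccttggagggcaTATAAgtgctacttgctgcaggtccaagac
Hbb-bs (chr7:103827929-103828128, minus strand): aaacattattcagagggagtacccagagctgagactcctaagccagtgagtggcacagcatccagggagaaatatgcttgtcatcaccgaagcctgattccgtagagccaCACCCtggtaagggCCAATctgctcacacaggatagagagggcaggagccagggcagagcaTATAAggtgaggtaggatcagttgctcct
Hbb-bt (chr7:103813924-103814123, minus strand): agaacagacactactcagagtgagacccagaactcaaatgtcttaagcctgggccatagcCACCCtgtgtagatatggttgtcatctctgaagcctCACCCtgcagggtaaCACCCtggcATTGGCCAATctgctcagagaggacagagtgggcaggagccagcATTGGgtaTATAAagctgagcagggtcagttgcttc
Within 250 bases before the start, and with the windows shifted by 3 bases, Hba-a1 and Hba-a2 were identical at 247 of 247 positions. Hbb-bs and Hbb-bt were identical at 127 of 249 (51.0%) in the best ungapped placement, and Hba-a1 and Hbb-bs at 78 of 243 (32.1%). All 4 globin windows of 250 bases held each of the 4 motifs at least once, with GATAA of Hbb-bs and Hbb-bt lying before the bases printed. Of 32851 promoter windows of that length, 22.8% held the letters TATAA, 33.8% held the letters CCAAT, 52.0% held a CACCC box and 22.6% held the letters GATAA, and 318 (0.968%) held all 4. The Alas2 window held 3 of the motifs, all but the CAAT box, and the Epb42 window held the TATA box letters and those of the GATA factors. In the Hbb-bt window a CAAT box on one strand adjoins one on the other. A match is a description of these letters only, and its bearing on the array values was not tested.

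Array values are deposited log2 values. The array files used here hold no detection call, so 1205 probe sets of olfactory and vomeronasal receptor genes, which serve in sensory neurons, were taken as a scale of background. Their mean was 5.74 on hemophagocyte 3 and 5.94 to 6.15 on the other arrays, and their 95th percentile, called the receptor ceiling, lay between 7.41 and 7.80. Probes differ in brightness, so this scale is approximate. Hemophagocytes 3 and 5 stood apart in high values, with 834 and 608 probe sets more than 1 log2 unit above their own median over the 8 arrays, against 154 to 238 on the other 6 arrays. Of 13 measured splenic macrophage markers, 0 lay above the receptor ceiling on all 8 arrays and 8 lay above it on none. The array mean of these markers was 6.59 to 7.70 in hemophagocytes and 6.72 to 6.87 in resting macrophages. Cd68, a lysosomal glycoprotein of macrophages, was above the ceiling on hemophagocytes 3 and 5 only (9.66 and 10.52), with 7.21 to 7.50 on the other arrays. Lyz2, the lysozyme of macrophages and neutrophils, read 5.86, 9.95, 9.96 and 6.55 on hemophagocytes 2, 3, 5 and 6 and 8.89, 8.86, 8.71 and 7.45 on resting macrophages 3, 4, 5 and 6, above the ceiling on 5 arrays. Its change was -0.40 (limma adjusted p = 0.94), against the direction of most of the list. On hemophagocyte 6 and resting macrophage 6, 0 of the 13 markers were above the ceiling. Only Gng5, a G protein subunit, passed over all 35556 probe sets (0.00281% called; limma adjusted p = 0.026), and it no longer passed without hemophagocyte 5, without hemophagocyte 6 or without any 1 of the resting arrays. Without hemophagocyte 2, 11 probe sets were called.

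Adult alpha globin was bright on all 4 resting arrays and spread over a wide range on the hemophagocyte arrays. Alpha A read 5.93, 7.45, 8.76 and 10.69 on hemophagocytes 2, 3, 5 and 6, and 8.59, 10.48, 10.10 and 9.64 on resting macrophages 3, 4, 5 and 6. Alpha B read 6.06, 7.77, 8.93 and 10.46 on the same hemophagocyte arrays, and 8.68, 10.41, 10.07 and 9.82 on the resting arrays. In both probe sets hemophagocyte 6 was the brightest of all 8 arrays, and hemophagocytes 2 and 3 were the dimmest, so the groups overlapped.

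The mean of alpha globin was lower in hemophagocytes, but the difference did not exceed what the spread between arrays allows. Alpha A averaged 8.20 ± 2.02 in hemophagocytes and 9.70 ± 0.82 in resting macrophages (log2, mean ± SD, n = 4 each). The log2 change was -1.50 (SE 0.93, with a 95% confidence interval -3.63 to 0.64; limma adjusted p = 0.79). Alpha B averaged 8.31 ± 1.86 and 9.74 ± 0.75, with a change of -1.44 (SE 0.86, interval -3.40 to 0.53; limma adjusted p = 0.79). The interval of alpha B runs from values 10.6-fold higher in resting macrophages to 1.44-fold higher in hemophagocytes. Exact two-sided permutation of the arrays gave p = 0.26 for both probe sets, where 0.029 is the smallest p that 4 arrays against 4 can give.

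Adult beta globin was likewise bright on the resting arrays and widely spread on the hemophagocyte arrays. Beta A read 5.92, 9.52, 9.61 and 11.41 on hemophagocytes 2, 3, 5 and 6, and 8.97, 11.89, 11.17 and 10.49 on resting macrophages 3, 4, 5 and 6. Beta B read 5.85, 9.67, 9.82 and 11.34 on the hemophagocyte arrays and 9.59, 11.71, 11.50 and 10.55 on the resting arrays. Resting macrophage 4 was the brightest array in both beta probe sets, hemophagocyte 2 the dimmest and resting macrophage 3 the next dimmest, and the groups overlapped.

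Beta A averaged 9.11 ± 2.30 in hemophagocytes and 10.63 ± 1.25 in resting macrophages, a log2 change of -1.52 (SE 1.12, interval -4.08 to 1.05; limma adjusted p = 0.79). Beta B averaged 9.17 ± 2.34 and 10.84 ± 0.97, a change of -1.67 (SE 1.08, interval -4.15 to 0.82; limma adjusted p = 0.79). Exact permutation gave p = 0.34 for beta A and p = 0.23 for beta B. As point estimates, resting macrophages held 2.71-fold to 3.17-fold more globin signal over the 4 globin probe sets. These folds take in hemophagocyte 2, whose globin values lay at background, so their size is not exact. Without that array the log2 changes were -0.74 to -0.45. With the receptor mean of each array as a covariate the changes were -0.36, -0.44, -0.71 and -0.98 for alpha A, alpha B, beta A and beta B. Neither a rise nor a fall of globin in hemophagocytes passed the test, and 0 of 7 red cell probe sets were called, against 0.00281% of all probe sets.

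**Figure D1:**
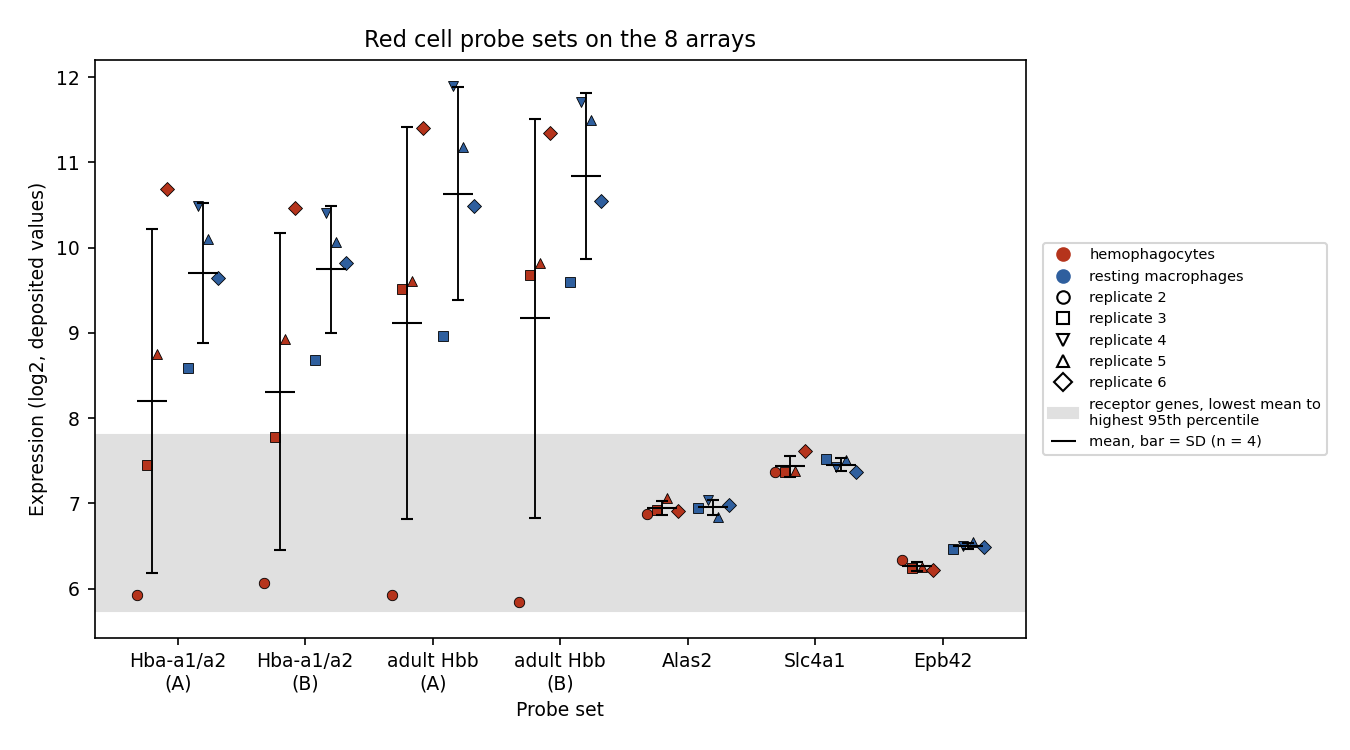
Deposited log2 value of each red cell probe set (x axis) on each array, with hemophagocytes in red and resting macrophages in blue, marker shape giving the replicate number, and the horizontal mark and bar giving mean and SD (n = 4). The grey band runs from the lowest receptor mean (5.74) to the highest receptor ceiling (7.80). Globin values of hemophagocyte 2 lie inside the band at 5.85 to 6.06, and Alas2, Slc4a1 and Epb42 lie inside it on every array.

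Among the fits that leave out 1 array, the globin changes were nearest to 0 without hemophagocyte 2. On hemophagocyte 2, the 4 globin probe sets stood between 0.096 below and 0.12 above the receptor mean of that array, brighter than 41.4% to 48.7% of the receptor probe sets. Globin signal was thus not distinguishable from background there. On the other 7 arrays each globin probe set was brighter than at least 95.5% of the receptor probe sets, the lowest being alpha A on hemophagocyte 3. Without hemophagocyte 2 the log2 changes were -0.74 for alpha A, -0.69 for alpha B, -0.45 for beta A and -0.56 for beta B (limma adjusted p from 0.83 to 0.90). Without hemophagocyte 6, the brightest hemophagocyte array, they were -2.33, -2.16, -2.28 and -2.39 (limma adjusted p = 0.68 for each). Over all leave-one-out fits the change stayed below 0 in all 4 globin probe sets and none passed.

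**Figure D2:**
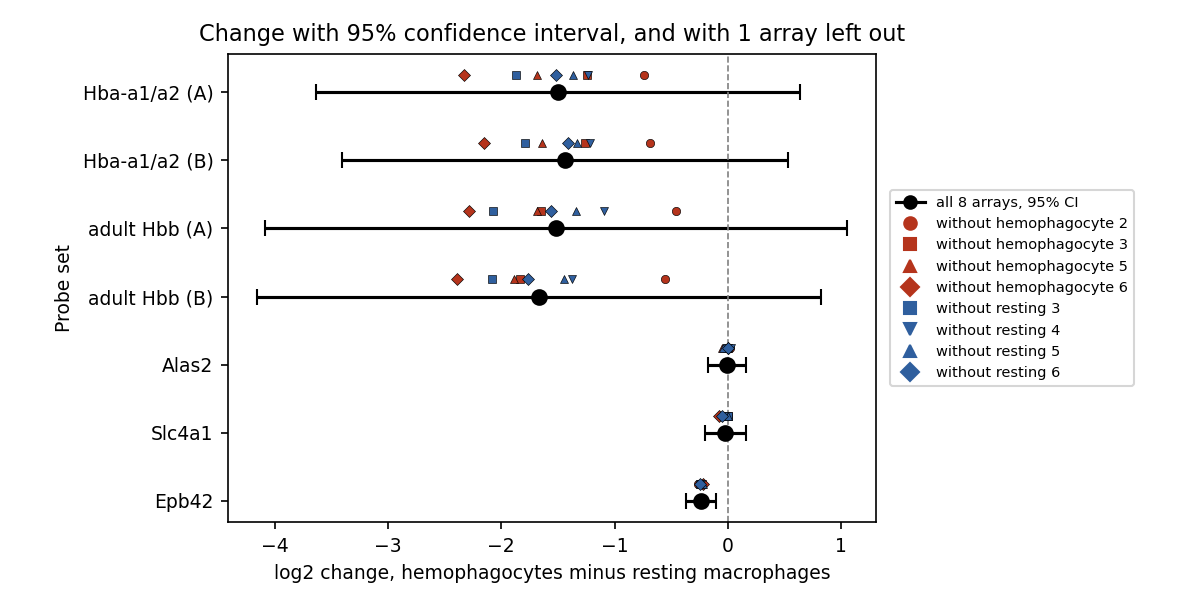
log2 change from resting macrophages to hemophagocytes (x axis) for each red cell probe set (y axis), as a black point with its 95% confidence interval from limma, and above it the change with each single array left out. The globin intervals all span 0, and the globin points without hemophagocyte 2 (red circles, -0.74 to -0.45) and without hemophagocyte 6 (red diamonds, -2.39 to -2.16) mark the ends of their ranges.

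Size and precision differed between globins and the other red cell probe sets. Over all probe sets, 80 (0.225%) had a change below -1, a size chosen after the values were seen, and the 4 globin probe sets were among them. Their SD over the 8 arrays, 1.52 to 1.89, was larger than that of 99.3% to 99.7% of probe sets. Within the resting group alone the range between arrays was 3.30-fold to 7.59-fold. The hemophagocyte range has no exact fold, since its lower end was at background.

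Alpha and beta globin ordered the arrays in nearly the same way. Across the 8 arrays, Pearson's r between an alpha and a beta probe set ran from 0.94 to 0.96 over the 4 such pairs (exact permutation p = 6.2e-04 or less, and 0.0022 after Benjamini-Hochberg adjustment over all 21 pairs of red cell probe sets). Spearman's rho ran from 0.90 to 0.95 (exact permutation p = 0.0046 or less, adjusted p = 0.016 or less). Without hemophagocytes 2 and 3, the 2 arrays farthest from the alpha median, r was 0.96 to 0.98. After each group's mean had been subtracted, r was 0.92 to 0.95. The points share array and RNA amount per array. Alpha A and alpha B, which name the same genes, had r = 0.997, and beta A and beta B had r = 0.99.

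**Figure D3:**
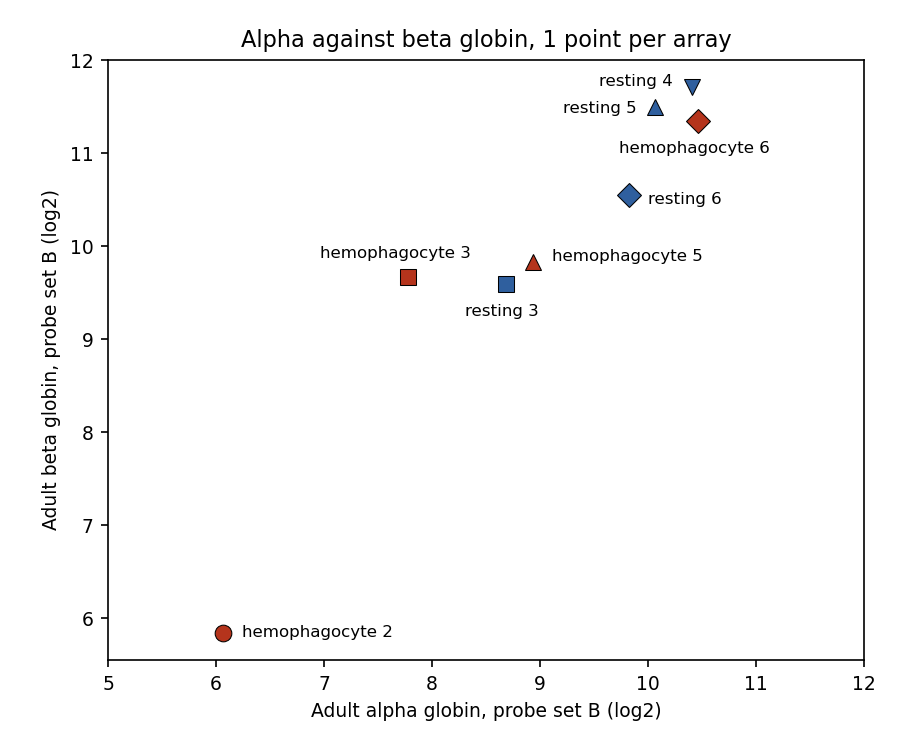
Adult beta globin (probe set beta B, y axis) against adult alpha globin (probe set alpha B, x axis), both as deposited log2 values, with 1 labelled point per array and hemophagocytes in red. Hemophagocyte 2 sits alone at 6.06 and 5.85, and hemophagocyte 6 lies among resting macrophages 4, 5 and 6 at the upper right.

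Alas2, Slc4a1 and Epb42 were near background on every array. Alas2 read 6.88, 6.92, 7.07 and 6.92 on hemophagocytes 2, 3, 5 and 6 and 6.94, 7.05, 6.84 and 6.99 on resting macrophages 3, 4, 5 and 6. Its brightest and dimmest arrays differed 1.17-fold, and the groups overlapped throughout. The mean was 6.95 in both groups (SD 0.08 for hemophagocytes, 0.09 for resting macrophages), with a change of -0.0079 (SE 0.07, interval -0.18 to 0.16; limma adjusted p = 0.99). Slc4a1 read 7.37, 7.37, 7.38 and 7.61 on the hemophagocyte arrays and 7.52, 7.42, 7.51 and 7.37 on the resting arrays, so that hemophagocyte 6 was the highest and resting macrophage 6 the lowest. Its change was -0.022 (SE 0.08, interval -0.20 to 0.16; limma adjusted p = 0.96). Neither change had a sign that held under other scalings. Alas2 was brighter than 68.6% to 86.0% of the receptor probe sets, and Slc4a1 brighter than 87.7% to 94.2%. A transcript level below what these probes register would not show, so a difference was not detectable here, which is not an absence of the transcripts.

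Epb42 was the 1 red cell probe set whose groups did not overlap. It read 6.34, 6.25, 6.25 and 6.22 on hemophagocytes 2, 3, 5 and 6 and 6.46, 6.50, 6.55 and 6.48 on resting macrophages 3, 4, 5 and 6. The log2 change was -0.24 (SE 0.06, interval -0.37 to -0.10), which at 1.18-fold is small. It did not pass (limma p = 0.0038, adjusted p = 0.78; exact permutation p = 0.029, the smallest possible). In 2.94% of all probe sets the groups lay apart with lower values in hemophagocytes, and 4.64% had a lower value at an unadjusted p under 0.05. Epb42 lay near the middle of the receptor probe sets, brighter than at most 63.2% of them on any array. The receptor probe sets themselves had a median change of -0.15, 22.4% of them had a change below that of Epb42, and in 6.31% the groups lay apart in the same direction.

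None of the 12 pairs of a globin probe set with Alas2, Slc4a1 or Epb42 had a correlation that passed. The largest Pearson's r was 0.56, between alpha A and Slc4a1 (exact permutation p = 0.15, adjusted p = 0.45; Spearman's rho 0.52, exact permutation p = 0.20, adjusted p = 0.52). Without the 2 arrays farthest from the median of the globin probe set, r over the 12 pairs ran from -0.58 (beta B and Alas2) to 0.57 (beta B and Slc4a1), and that of alpha A and Slc4a1 was 0.36. These 3 probe sets varied over at most 1.26-fold across the 8 arrays, so the correlations rest on very small differences.

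Other red cell genes were read from lists of erythroid genes, at the brightest probe set that names the gene alone. Limma called 0 in either direction in the 5 lists, and at p under 0.05 before adjustment 1 was higher and 2 were lower, where 1.71% and 4.64% of all probe sets were. The embryonic, minor beta-like and theta globins mostly lay within the receptor range, with 5 of 6 measured genes above the receptor ceiling on no array, 1 change above 0 and 5 below, and a median change of -0.05 against -0.04 over all probe sets. Hbq1a, a theta globin, had the smallest p of these, at 5.24 ± 0.09 on hemophagocyte arrays against 5.49 ± 0.20 on resting arrays (limma adjusted p = 0.78). Hbb-bh2, a minor beta-like globin, changed by -0.09 and the embryonic Hbb-y by -0.06, and neither passed.

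Heme synthesis genes gave 6 changes above 0 and 6 below among 12 measured, and all 12 lay under the receptor ceiling on every array. Uros, which closes the heme ring precursor, had a change of -0.18 and the groups lay apart, as in 2.94% of all probe sets and 6.31% of the receptor probe sets, without passing (limma adjusted p = 0.78). Alas1, the housekeeping counterpart of Alas2, changed by -0.10 and the mitochondrial transporter Abcb10 by -0.09, and neither passed. Of 16 red cell membrane and skeleton genes, 5 had changes above 0 and 11 below, with a median of -0.05. Add2 (beta adducin, -0.15) and Ank1 (ankyrin, -0.12) had groups apart, in the direction of the same 2.94% of all probe sets, and Rhag, of the Rh complex, changed by 0.13. Of these 3, 0 passed (limma adjusted p = 0.78 for each). Of 16 genes of this list, 14 were under the ceiling on every array.

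Erythroid transcription factors and receptors mostly lay within the receptor range. Of 13 measured genes, 11 were under the receptor ceiling on every array, 6 had changes above 0 and 7 below. Gata1, the master regulator of erythroid genes, read 6.28 to 6.43 on the hemophagocyte arrays and 6.40 to 6.55 on the resting arrays, and Klf1, the activator of adult beta globin, read 7.23 to 7.52 and 7.23 to 7.62. Tfrc, the transferrin receptor through which precursors take up iron, read 4.86 to 4.96 and 4.90 to 5.13. Trim10 changed by -0.15 and Epor, the erythropoietin receptor, by -0.13, without passing (limma adjusted p = 0.79 for both). Gfi1b, a repressor shared by erythroid cells and megakaryocytes, was the 1 gene above the ceiling on all 8 arrays, at 8.10 ± 0.11 and 8.16 ± 0.06, and was named after its values were seen.

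Among red cell enzymes and reticulocyte transcripts, 12 of 17 changes lay above 0, and the median was 0.04. Gpx1, a glutathione peroxidase abundant in red cells and in macrophages, was higher on 3 hemophagocyte arrays. It read 6.45, 8.89, 8.45 and 9.91 on hemophagocytes 2, 3, 5 and 6 and 6.47 to 6.92 on the resting arrays, a change of 1.74 (SE 0.63) that did not pass (limma adjusted p = 0.78). Its resting values stood below the ceiling where the globins were bright, and its r with beta B was 0.21 across the 8 arrays. Blvrb, a biliverdin reductase, changed by 0.16 and Prdx2, a red cell peroxidase, by -0.17, and neither passed.

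Of the genes that take up hemoglobin and heme and store iron, 13 were measured, and limma called 0 of them. Their r with beta B across the 8 arrays ran from -0.70 for Hp to 0.75 for Slc48a1, a heme transporter named after its value was seen. Fth1, the ferritin heavy chain, read 8.66, 10.38, 10.48 and 10.55 on hemophagocytes 2, 3, 5 and 6 and 9.03, 9.35, 7.87 and 6.98 on resting macrophages 3, 4, 5 and 6. Ftl1, the light chain, changed by 2.54 (limma adjusted p = 0.45) and haptoglobin, Hp, by 0.43 (limma adjusted p = 0.78), and neither passed. For Ftl1 and Hp the groups lay apart, with higher values in hemophagocytes. The share of all probe sets that lay apart in that direction was not computed. Resting macrophages 5 and 6 had the lowest Fth1 values, and r between Fth1 and beta B was 0.03. Of 13 genes of this list, 3 had higher and 0 had lower values with limma's p, before adjustment, under 0.05, against 1.71% and 4.64% of all probe sets. The 3 were Ftl1, Hp and Fth1. Of the 13 genes, 10 were above the receptor ceiling on no array, and Hp was 1 of these. Ftl1 was above it on 2 arrays, with 4.81 to 5.90 on the resting arrays, and Fth1 was above it on 7.

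The signals most like the globins were weaker matches than the globins were to each other. The screen took 447 probe sets that name 1 gene and have an SD of at least 0.5. Predicted genes, clone names, microRNAs and the red cell probe sets themselves were passed over. Genes of smaller SD, such as Slc48a1 (r = 0.75 with beta B), were outside it. Closest to beta B among the 447 across the 8 arrays was COX2, named for a subunit of cytochrome c oxidase (r = 0.75). Next came 4 probe sets of Rps12, a ribosomal protein (r = 0.72 for 1 and 0.70 for 3 with identical values). One of those 3 read 7.10 on hemophagocyte 2, 6.86 on resting macrophage 3 and 10.20 to 11.14 on the other 6 arrays. COX2 read 6.82 on hemophagocyte 2, 6.96 on resting macrophage 3 and 9.73 to 10.66 elsewhere. Hemophagocyte 2 and resting macrophage 3, the dimmest arrays of their groups in all 4 globin probe sets, were also the dimmest in these transcripts. COX2 and Rps12 were picked for their r with beta B, so dim values on these arrays follow in part from the selection. Fth1 and Lyz2, not picked in this way, were lowest of the hemophagocyte arrays on hemophagocyte 2 (8.66 and 5.86). On resting macrophage 3 they were not the lowest of the resting arrays (9.03 and 8.89). The part of array brightness in the globin values was not tested. Without hemophagocyte 2 and resting macrophage 3 the globin changes were -1.11, -1.04, -1.01 and -0.97 for alpha A, alpha B, beta A and beta B. None passed (limma adjusted p from 0.76 to 0.77). Globin on resting macrophage 3, at 8.59 to 9.59, was still above 99.8% or more of the receptor probe sets. Closest to alpha B in the screen were Olfr378 (r = 0.72), Trdn (0.71), Cyp2c65 (0.70), Adck1 (0.69) and Lsm5 (0.67). All of them lay in the range of background. Olfr378 read 5.21 to 7.25 and Lsm5 5.90 to 7.67, under the receptor ceiling on every array. Trdn (3.90 to 5.38), Cyp2c65 (3.21 to 4.63) and Adck1 (2.82 to 4.30) read below the receptor mean of every array.

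Markers of other blood cells were read in the same way. Pf4, a platelet chemokine, read 10.35 and 9.11 on hemophagocytes 3 and 5, 6.10 and 5.49 on hemophagocytes 2 and 6, and 6.61 to 7.41 on the resting arrays. S100a8, of neutrophils, read 8.02 and 6.41 on hemophagocytes 3 and 5 and 4.60 to 5.12 on the other arrays. S100a9, its partner chain, read 6.35, 9.12, 6.01 and 7.33 on hemophagocytes 2, 3, 5 and 6 and 6.12 to 6.34 on the resting arrays, so the pair was high together on hemophagocyte 3 only. Hemophagocyte 6, the brightest for alpha globin, was thus among the dimmest for Pf4. Other markers did not share these high values. Ppbp, the platelet marker of smallest p, read 4.80 and 5.18 on hemophagocytes 3 and 5 and changed by -0.20, and Treml1 changed by -0.11. Ngp, of neutrophils, changed by -0.11. Of 7 platelet markers, 4 changes lay above 0 and 3 below, and of 10 neutrophil markers, 4 and 6. On no array were 5 of the platelet and 7 of the neutrophil markers above the receptor ceiling. Over the whole lists, the platelet mean was 6.46 to 7.12 in hemophagocytes and 6.65 to 6.82 in resting macrophages (7 genes), and the neutrophil mean 6.30 to 6.76 and 6.25 to 6.32 (10 genes). All 7 B cell, 7 T cell and 8 natural killer cell markers lay under the receptor ceiling on every array. Limma called 0 markers of these 5 lists, and at p under 0.05 before adjustment 0 were higher and 1 was lower, where 1.71% and 4.64% of all probe sets were.

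**Figure D4:**
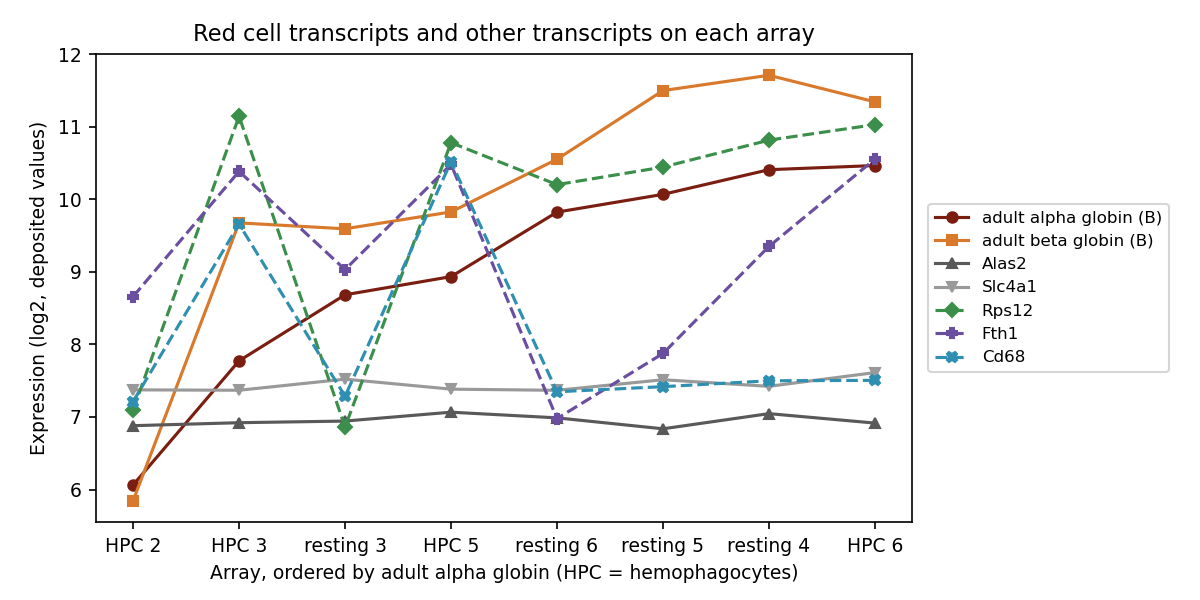
Deposited log2 values (y axis) of alpha B, beta B, Alas2, Slc4a1, Rps12, Fth1 and Cd68 on the 8 arrays, ordered along the x axis by alpha B (HPC marks hemophagocytes). Both globins are lowest on hemophagocyte 2 and higher toward the right, Alas2 and Slc4a1 stay flat between 6.84 and 7.61, Rps12 drops on hemophagocyte 2 and resting macrophage 3, and Cd68 peaks on hemophagocytes 3 and 5.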

How the data were processed

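The deposited table gives 1 log2 value per probe set and array from Affymetrix mouse Gene ST 1.0 arrays, the log2 scale being judged from the range of values. Per the labels' protocols, amplification used the WT-Ovation One-Direct system. The submitters' processing notes name Affymetrix Expression Console 1.1. Background correction, normalization and build: not given in the sources used here. Array medians were 6.10 to 6.17. Arrays have no read depth, and 4 arrays per group limit the precision.

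The annotation names 1 gene for 21789 probe sets, several for 1621 and does not list 12146, which may include controls. All 35556 were fitted with limma 3.58.1 (lmFit, then eBayes, in R 4.3.3, without a block), Benjamini-Hochberg adjustment over all of them and a threshold of 0.05. Changes are hemophagocyte minus resting macrophage. The genes and lists were chosen with earlier results of these data known. All red cell probe sets are named, up to 3 genes per other list by smallest p, and marker genes that define a cell type. The 5 probe sets most like each globin by Pearson's r, among the 447 screened, are named too. Lyz2, Gfi1b and Slc48a1 are named outside these rules.

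On simulated data (10 draws of 35556 probe sets for this comparison) the fit recovered 78.9% of changes of 1 log2 unit and 93.3% of 2, with 10.4 false calls per draw. The changes were put into probe sets drawn at random, with normal noise of the same SD in both groups. The globin probe sets had SEs of 0.86 to 1.12 and a larger SD than 99.3% to 99.7% of probe sets. These recovery rates therefore do not hold for the globins, whose own recovery was not simulated. Alternatives were 3 normalizations, a filter on dim probe sets, an intensity trend with robust prior, array weights, named probe sets only, a receptor background covariate, each array left out, a replicate block, exact permutation and, added after seeing the data, 2 arrays left out together.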

Additional observations from a re-analysis of the deposited data

Results flagged for a closer look

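Slc4a1 on hemophagocyte 6 stood apart from the other 3 hemophagocyte arrays, at 7.61 against 7.37 to 7.38. This was the 1 such case among 14 sets of 4 values, 7 red cell probe sets in each group, by Dixon's criterion. Chance gives about 1 in 20 for each set, so 1 case among 14 sets is no clear excess. The same array was the brightest for both alpha globin probe sets. Globin values of hemophagocyte 2, although the lowest, did not meet that criterion.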

How the results depend on the processing

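Under 18 alternative fits, 0 of 7 red cell probe sets passed, and the 4 globin probe sets and Epb42 kept a change below 0. Outside the fits that leave out arrays, the globin changes ran from -1.58 to -0.36 (alpha A), -1.52 to -0.44 (alpha B), -1.70 to -0.034 (beta A) and -1.89 to -0.27 (beta B), and that of Epb42 from -0.26 to -0.20. The ends nearest 0 came from the receptor covariate for alpha and from the replicate block for beta. With the replicate block the changes were -0.48, -0.47, -0.034 and -0.27. Same-numbered arrays deviated together with r = 0.14, 0.034 and 0.13 for numbers 3, 5 and 6, so the numbers were not taken as pairs. Hemophagocyte 2 and resting macrophage 4 add nothing to the blocked contrast.

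The sign of both smallest changes turned. Alas2 (-0.0079) became 0.0061 with quantile normalization, 0.019 with median centring, 0.030 with cyclic loess, 0.019 with the receptor covariate, 0.045 with the replicate block and 0.011 without hemophagocyte 2 and resting macrophage 3 together, and ran from -0.048 to 0.023 with single arrays left out. Slc4a1 (-0.022) became 0.0053 with median centring, 0.027 with cyclic loess, 0.0089 with array weights, 0.0091 with the receptor covariate and 0.020 without those 2 arrays, and ran from -0.081 to 0.00041 with single arrays left out. The cause was not tested.

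Over all probe sets, 0 were called with the receptor covariate (limma, 750 higher and 891 lower at p under 0.05 before adjustment) and 0 with the replicate block (715 and 1456), and 0 to 11 with single arrays left out, 11 of them without hemophagocyte 2. Signal over background limits Alas2, Slc4a1 and Epb42, whose values lay within the receptor range on every array.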
